A study of Homo sapiens with 12 samples.

Results

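MHC class II molecules are the surface receptors with which B cells and other antigen-presenting cells show peptides from endocytosed protein to CD4+ T cells. Each is a pair of an alpha and a beta chain, encoded in the HLA-DR, HLA-DP and HLA-DQ regions of chromosome 6, and is assembled on the invariant chain CD74, which HLA-DM later helps to replace with peptide. Their transcription depends on CIITA, a coactivator that does not bind DNA itself but joins the RFX, NF-Y and CREB proteins that sit on the class II promoters, and loss of class II and CIITA is a known feature of some diffuse large B-cell lymphomas (DLBCL).

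The genes described are HLA-DRA, HLA-DRB1, HLA-DPA1, HLA-DPB1, HLA-DQA1, HLA-DQB1, HLA-DMA, HLA-DMB, CD74 and CIITA, 10 genes taken by the symbol of the probes in the array annotation. Of the 10, 9 had a probe (none was listed for HLA-DQA1), with 12 probes of 47230 in all, and 8 could be tested among the 9621 genes that passed the detection filter. RNA came from the human DLBCL lines HLY (HLY-1) and SUDHL2 (SUDHL-2, L2 in the labels), each kept in RPMI-1640 with 10% FBS under 5% CO2 at 21% oxygen (normoxia) or 1% oxygen (hypoxia), and each of the 4 groups had 3 Illumina HumanHT-12 v4 arrays. The length of hypoxia for these arrays is not given in the sources used here, and the labels do not say whether the 3 arrays of a group came from separate cultures, so that p-values measure only the spread between arrays.

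The arrays grouped across the line labels, which touches every value given here. Over the genes tested, each array labelled HLY hypoxia correlated at 0.978 to 0.985 with the SUDHL2 normoxia arrays but at 0.754 to 0.757 with the HLY normoxia arrays, and each array labelled SUDHL2 hypoxia correlated at 0.971 to 0.981 with the HLY normoxia arrays but at 0.751 to 0.757 with the SUDHL2 normoxia arrays. These are correlations across genes, which are not independent replicates. Whether line labels were exchanged between 2 groups at one oxygen level was not tested, and in that case the differences given within a line label would be differences between lines, while the average response would stay the same. Groups are therefore called by their labels, and hypoxia is set against normoxia within each line label (the HLY response and the SUDHL2 response), between the pairs of groups that resembled each other, and as the mean of both labels (the average response). Array medians ran from 111 to 149 intensity units, and each array had 12322 to 14925 probes with a detection p under 0.01.

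The promoters of class II genes carry a conserved module in which an X box, bound by RFX, is followed by a Y box, bound by NF-Y. To show where the factors described further on would sit, the 300-base windows around the transcription starts in RefSeq (GRCh38.p14, from 250 bases before to 50 after the start) were searched on both strands for the letters CNGATG, the 3′ part of the X box, for ATTGG, the Y box core, and for the former followed by the latter 15 to 25 bases on, so that the 2 do not overlap. The letters and the spacing were chosen after some of these windows had been read. RefSeq windows were at hand for 8 of the 10 genes, HLA-DRA and CIITA being those without one. Of all 35116 promoter windows, 32.4% held CNGATG, 34.6% held ATTGG and 0.686%, which is 241 windows, held the spaced pair. Of 14 windows of class II genes and CD74, 9 held CNGATG, 12 held ATTGG and 6 held the pair. Among the described genes the pair was found for HLA-DRB1, HLA-DQB1 and HLA-DMA, while the HLA-DMB and CD74 windows held both sets of letters but not the spaced pair. The stretches of these 3 genes are printed with that of HLA-DOB, an inhibitor of HLA-DM whose values ran the other way on these arrays, on the strand of the gene with the matched letters in capitals. They lie at chr6:32589882-32589930 (minus strand), chr6:32666733-32666781 (minus), chr6:32953164-32953213 (minus) and chr6:32817088-32817135 (minus).
HLA-DRB1: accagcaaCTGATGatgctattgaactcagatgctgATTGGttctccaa
HLA-DQB1: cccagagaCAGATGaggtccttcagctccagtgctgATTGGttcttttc
HLA-DMA: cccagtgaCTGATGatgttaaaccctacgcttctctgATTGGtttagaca
HLA-DOB: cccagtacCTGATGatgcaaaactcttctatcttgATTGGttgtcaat
In all 4 the Y letters followed the X letters on the same strand after 21 to 23 bases. A match describes the letters only, and a window without the X letters, as for HLA-DQA1, HLA-DPB1 and 1 of the 2 starts of HLA-DPA1, says nothing about binding.

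Class II genes were high on the arrays labelled HLY hypoxia and SUDHL2 normoxia and low on those labelled HLY normoxia and SUDHL2 hypoxia. Of the 5 genes detected on all 12 arrays (HLA-DRA, HLA-DPA1, HLA-DMA, HLA-DMB and CD74), 4 were higher with hypoxia under the HLY label and all 5 were lower under the SUDHL2 label. Over all genes tested, limma called 33.1% higher and 32.4% lower in the HLY response and 33.3% higher and 33% lower in the SUDHL2 response, so that a change in either direction was common on these arrays. Groups that did not overlap were common too, at 71.9% of genes in the HLY response and 66.9% in the SUDHL2 response. HLA-DPB1, HLA-DQB1 and CIITA were also called higher and lower in the same sense, but they passed the detection filter only through the groups where they were high and had to differ. HLA-DRB1 was detected on 0 of 12 arrays. By limma's test of the difference itself the SUDHL2 response lay below the HLY response for all 5 genes detected throughout, each by its brightest probe. In that test 37.1% of all genes were higher and 36.6% lower, 73.8% in either direction. The dimmest CD74 probe was not called in it (adjusted p = 0.183 over all kept probes). Fewer cells that carry a transcript and less of it per cell cannot be told apart in such bulk RNA.

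**Figure D1:**
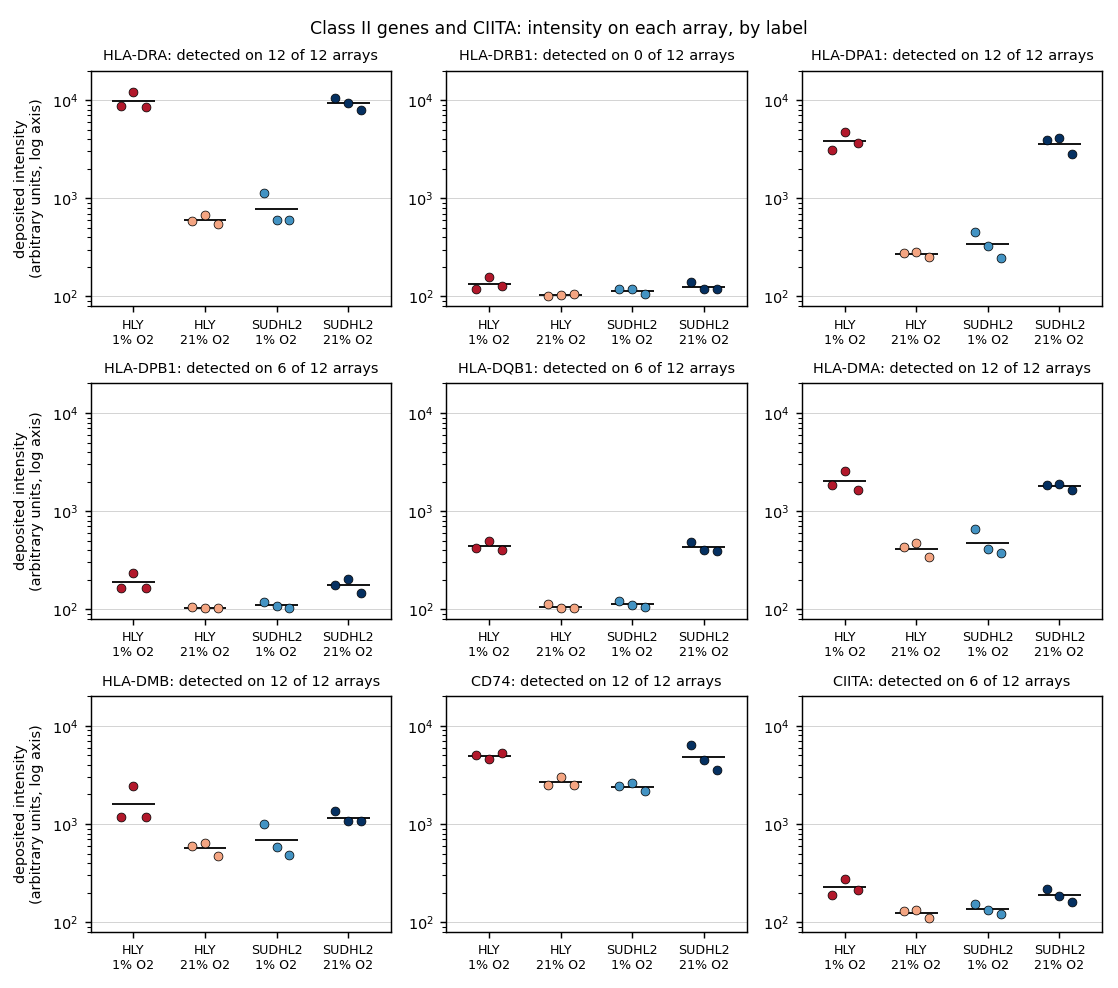
Deposited intensity (arbitrary units, log axis) of the 9 genes with a probe, each point an array and each line the mean of 3 arrays labelled HLY or SUDHL2 at 1% or 21% oxygen. For HLA-DRA the arrays labelled HLY hypoxia and SUDHL2 normoxia lie between 7867 and 11988 and the others between 550 and 1122, and HLA-DRB1 stays between 102 and 157.

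CIITA (chr16:10866206-10943021 in GRCh38.p14), the coactivator on which class II transcription depends, was read by a probe close to background. On the arrays labelled HLY its deposited intensity was 189, 274 and 214 at 1% oxygen and 130, 133 and 109 at 21%. On those labelled SUDHL2 it was 152, 133 and 122 at 1% oxygen and 216, 185 and 160 at 21%. The groups did not overlap within either label, and the probe was detected on all 6 arrays of HLY hypoxia and SUDHL2 normoxia and on none of the other 6. CIITA was at least 1.68-fold higher with hypoxia under the HLY label and at least 1.38-fold lower under the SUDHL2 label. These bounds set the bright group against the lowest signal of any detected probe. The fitted log2 differences, which are not bounds, were 1.61 and -1.05 (adjusted p = 2.48e-07 and 2.04e-05 from limma). CIITA passed the detection filter only through the groups where it was high and had to differ, so that these p-values are no support.

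HLA-DRA (chr6:32439887-32445046) encodes the DR alpha chain, which hardly varies between people. Its brighter probe, ILMN_2157441, read 8733, 11988 and 8470 on the arrays labelled HLY hypoxia and 592, 671 and 550 on those labelled HLY normoxia. It read 1122, 599 and 597 on the SUDHL2 hypoxia arrays and 10503, 9420 and 7867 on the SUDHL2 normoxia arrays. The groups were well apart within each label, and the highest of the low arrays stayed under the lowest of the high ones. HLA-DRA was 14-fold higher with hypoxia under the HLY label (95% confidence interval 11.8 to 16.7, adjusted p = 1.91e-12 from limma). It was 12.6-fold lower under the SUDHL2 label (95% confidence interval 10.6 to 15, adjusted p = 2.97e-12). The other probe, ILMN_1689655, gave log2 differences of 3.78 and -3.47, within the 95% intervals of the first.

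The DR beta chain is the partner of HLA-DRA and one of the most variable proteins in humans, and whether a probe reads it depends on the allele the line carries. The HLA-DRB1 probe read 119, 157 and 128 on the HLY hypoxia arrays, 102, 103 and 107 on HLY normoxia, 118, 118 and 105 on SUDHL2 hypoxia and 139, 118 and 118 on SUDHL2 normoxia. None of these passed detection, although probes of other DR beta genes were bright on the same arrays, so that the level of HLA-DRB1 itself is not known from these data. HLA-DRB3, a second DR beta gene present in some haplotypes, read 1454, 2319 and 1539 on HLY hypoxia, 434, 448 and 339 on HLY normoxia, 524, 403 and 344 on SUDHL2 hypoxia and 1400, 1140 and 1096 on SUDHL2 normoxia. It was 3.91-fold higher with hypoxia under the HLY label (adjusted p = 2.10e-08) and 3.13-fold lower under the SUDHL2 label (adjusted p = 1.52e-07).

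Probes of 1 DR beta gene did not always say the same. HLA-DRB4, carried on other haplotypes than HLA-DRB3, had a probe, ILMN_1752592, that read 1257, 1803 and 1129 on HLY hypoxia, 259, 252 and 210 on HLY normoxia, 394, 277 and 244 on SUDHL2 hypoxia and 1432, 1207 and 1225 on SUDHL2 normoxia. One more HLA-DRB4 probe was detected on 3 of 12 arrays and another on 0 of 12, and the former gave log2 differences of -0.05 in both responses (adjusted p = 0.868 and 0.879 over all kept probes). The single HLA-DRB5 probe was detected on 0 of 12 arrays. Both probes of HLA-DRB6, a transcribed pseudogene, rose under the HLY label and fell under the SUDHL2 label, with log2 differences of 3.46 and -3.10 for the one and 3.55 and -3.29 for the other, where 31.1% of all kept probes were called higher in the HLY response and 31% lower in the SUDHL2 response. DR beta genes are near-identical over long stretches, so a bright probe can hold signal from a neighbouring gene, and which DR beta gene each signal belongs to was not tested.

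HLA-DPA1 (chr6:33064569-33080748), the DP alpha chain, had the widest log2 difference of the 5 genes detected throughout. Its probe read 3128, 4739 and 3620 on HLY hypoxia and 275, 286 and 253 on HLY normoxia. Under the SUDHL2 label it read 449, 330 and 246 at 1% oxygen and 3965, 4090 and 2797 at 21%. The high and low groups were again well apart, with a 15.6-fold increase under the HLY label (95% confidence interval 12.7 to 19.3, adjusted p = 7.50e-12) and a 13.1-fold decrease under the SUDHL2 label (95% confidence interval 10.7 to 16.2, adjusted p = 1.47e-11). HLA-DPB1 (chr6:33075990-33089696), its variable beta partner, was read by a dim probe at 163, 237 and 165 on HLY hypoxia, 105, 103 and 103 on HLY normoxia, 118, 108 and 103 on SUDHL2 hypoxia and 177, 203 and 148 on SUDHL2 normoxia. It was at least 1.16-fold higher with hypoxia under the HLY label and at least 1.19-fold lower under the SUDHL2 label. HLA-DPB1 passed the detection filter only through the groups where it was high and had to differ. Its adjusted p-values from limma (1.09e-06 and 6.42e-07) belong to the fitted differences and are no support. The probes of the 2 DP chains were thus far apart in signal, which is no comparison of their levels. Whether the HLA-DPB1 probe reads the alleles of both lines was not tested.

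HLA-DQB1 (chr6:32659467-32666657), the variable DQ beta chain, was the one DQ gene measured among the described genes. Its probe read 419, 496 and 398 on HLY hypoxia and 489, 403 and 390 on SUDHL2 normoxia, and it was detected on all 6 of these arrays. It read 113, 103 and 104 on HLY normoxia and 121, 111 and 105 on SUDHL2 hypoxia, with no array detected. HLA-DQB1 was at least 4.60-fold higher with hypoxia under the HLY label and at least 5.37-fold lower under the SUDHL2 label. It passed the detection filter only through the groups where it was high and had to differ. Its adjusted p-values from limma (1.50e-10 and 6.59e-11) belong to the fitted differences and are no support. Whether the HLA-DQB1 probe reads the alleles of both lines was not tested. The probe of its relative HLA-DQA2 was detected on 0 of 12 arrays.

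HLA-DM, the peptide exchange factor, changed less than HLA-DRA and HLA-DPA1. HLA-DMA (chr6:32948618-32953097) read 1856, 2592 and 1633 on HLY hypoxia, 427, 479 and 342 on HLY normoxia, 651, 416 and 371 on SUDHL2 hypoxia and 1837, 1882 and 1635 on SUDHL2 normoxia. It was 4.42-fold higher with hypoxia under the HLY label (95% confidence interval 3.57 to 5.47, adjusted p = 7.93e-09) and 4.21-fold lower under the SUDHL2 label (3.40 to 5.2, adjusted p = 1.16e-08). HLA-DMB (chr6:32934636-32941028) read 1190, 2427 and 1183 on HLY hypoxia, 597, 646 and 474 on HLY normoxia, 1007, 578 and 482 on SUDHL2 hypoxia and 1343, 1072 and 1067 on SUDHL2 normoxia. Its normalized groups did not overlap within either label, and the folds were 2.23 (1.84 to 2.69, adjusted p = 1.91e-06) and 1.77 (1.46 to 2.14, adjusted p = 5.67e-05) in the same directions. The intervals of HLA-DMA and HLA-DMB do not meet each other or those of HLA-DRA and HLA-DPA1, although how steeply a probe follows its transcript differs between probes.

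HLA-DO, which holds HLA-DM back and is a B-cell product, was split. HLA-DOB (chr6:32812763-32817002) was the only one of the 5 other class II genes tested to run the other way. Its probe read 184, 306 and 218 on HLY hypoxia, 323, 330 and 278 on HLY normoxia, 442, 304 and 305 on SUDHL2 hypoxia and 223, 215 and 205 on SUDHL2 normoxia. After normalization it fell by 1.22 on the log2 scale with hypoxia under the HLY label (adjusted p = 9.58e-06) and rose by 1.34 under the SUDHL2 label (adjusted p = 3.73e-06). HLA-DOA, its alpha partner, read between 129 and 211 and was at least 1.17-fold higher and at least 1.16-fold lower in the respective responses (adjusted p = 0.00442 and 0.0113), but it was detected only in the groups where it was high and had to differ.

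**Figure D2:**
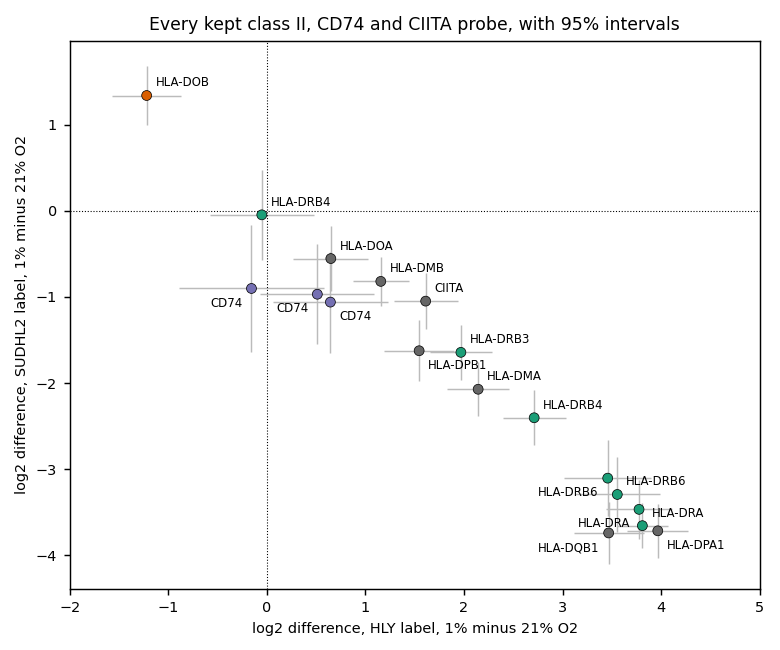
Log2 difference between 1% and 21% oxygen of every kept class II, CD74 and CIITA probe, under the HLY label on the horizontal and the SUDHL2 label on the vertical axis, with 95% confidence intervals. HLA-DRA, HLA-DPA1, HLA-DQB1 and HLA-DRB6 probes lie at the lower right, HLA-DOB at -1.22 and 1.34 at the upper left, and 1 HLA-DRB4 probe near 0 on both axes. HLA-DPB1, HLA-DQB1, HLA-DOA and CIITA lie at fitted values against background.

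CD74 (chr5:150401639-150412910), the invariant chain on which class II pairs are assembled, had the smallest log2 difference of the 5 genes detected throughout in the HLY response, while in the SUDHL2 response HLA-DMB had a smaller one. Its brightest probe, ILMN_1736567, read 5043, 4595 and 5296 on HLY hypoxia, 2475, 3005 and 2491 on HLY normoxia, 2468, 2606 and 2162 on SUDHL2 hypoxia and 6372, 4452 and 3567 on SUDHL2 normoxia. The deposited intensities did not overlap within either label. After normalization HLY hypoxia replicate 2 stood at 11.42 on the log2 scale, within the HLY normoxia arrays (11.37 to 11.63), and SUDHL2 hypoxia replicate 1 at 10.65, below the other 2 arrays of its group (11.59 and 11.61). CD74 was not called in the HLY response (log2 difference 0.51, 95% confidence interval -0.06 to 1.08, adjusted p = 0.106) and fell by 0.97 in the SUDHL2 response (adjusted p = 0.0052). Without HLY hypoxia replicate 2 it was called higher in the HLY response at 0.81 (adjusted p = 0.0119), and with arrays centred on their medians in place of quantile normalization at 0.82 (adjusted p = 0.00573), and it was also called without background correction (adjusted p = 0.0489) and without SUDHL2 hypoxia replicate 1 (adjusted p = 0.0425). A second CD74 probe gave 0.64 and -1.06 (adjusted p = 0.0538 and 0.00372 over all kept probes), and the remaining, dim one gave -0.16 and -0.90 (adjusted p = 0.711 and 0.033).

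**Figure D3:**
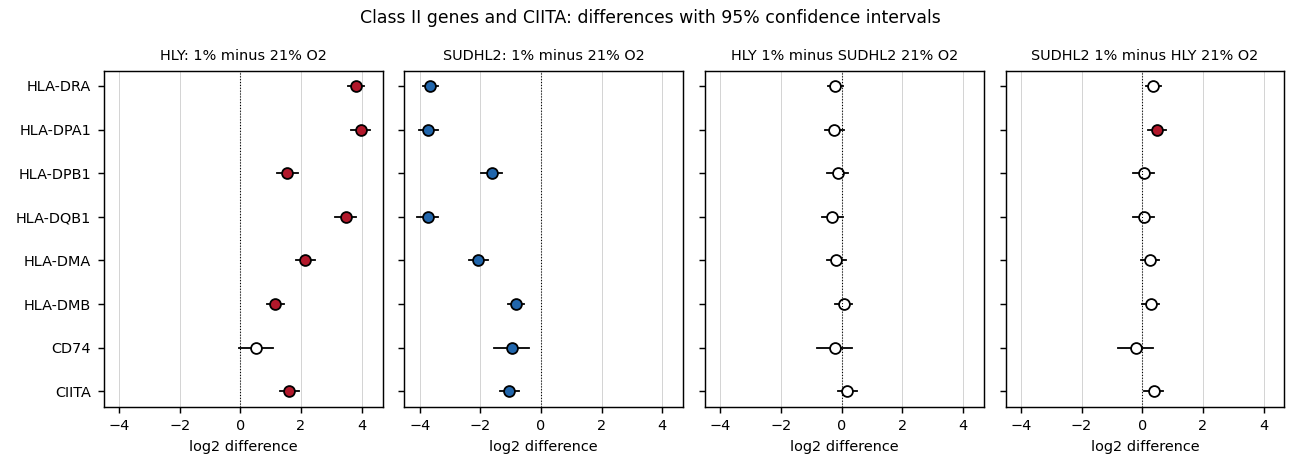
Log2 differences of the 8 genes tested, with 95% confidence intervals, in the HLY response, the SUDHL2 response and the 2 comparisons across line labels. Filled points passed an adjusted p of 0.05 (red higher, blue lower), and in the comparison of HLY hypoxia with SUDHL2 normoxia no gene did. In the HLY and SUDHL2 responses HLA-DPB1, HLA-DQB1 and CIITA had to differ, and their points are fitted values against background.

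Between groups that resembled each other each of the 8 genes tested, by its brightest probe, differed by less than 0.5 on the log2 scale. HLY hypoxia was set against SUDHL2 normoxia, 2 groups that differ in both labels. Of the 8 genes 0 were called by limma, where 1.17% of all genes were higher and 1.23% lower. At an unadjusted p under 0.05 limma called 0 of the 8 where it called 15.6% of all genes, and the methods' t-test called 1 lower where it called 6.17% lower. The log2 difference of HLA-DRA was -0.21 (95% confidence interval -0.46 to 0.05, adjusted p = 0.433), that of HLA-DPA1 -0.24 (-0.54 to 0.06) and that of CIITA 0.19 (-0.12 to 0.51). Between SUDHL2 hypoxia and HLY normoxia 1 of 8 genes was called higher and 0 lower, where 5.75% of all genes were higher and 10.1% lower. This was HLA-DPA1, at 0.49 on the log2 scale (95% confidence interval 0.19 to 0.79, adjusted p = 0.0314), which was no longer called without SUDHL2 hypoxia replicate 2 (0.37, adjusted p = 0.132) or without any 1 of the 3 HLY normoxia arrays. At an unadjusted p under 0.05 limma called 3 of the 8 (HLA-DRA, HLA-DPA1 and CIITA) where it called 31% of all genes, and the methods' t-test called 3 higher where it called 13.2% higher. HLA-DRA was at 0.36 there (0.11 to 0.61, adjusted p = 0.0532) and passed the threshold in 3 alternatives (no background correction, probes detected on all 12 arrays, and trend and robust moderation, adjusted p = 0.026, 0.0356 and 0.0205), and HLA-DPB1, HLA-DQB1 and CIITA were not above background in either group. Among other class II probes HLA-DRB4 was higher there at 0.57 (adjusted p = 0.0235 over all kept probes), and the dim CD74 probe stood at -0.53 in both of these comparisons without a call. In normalized values the order of the HLA-DRA levels was SUDHL2 normoxia, HLY hypoxia, SUDHL2 hypoxia and HLY normoxia, and neither the upper nor the lower pair of neighbours differed at the threshold. In deposited intensities the upper pair stood the other way, at means of 9730 for HLY hypoxia and 9263 for SUDHL2 normoxia.

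Set side by side at the same oxygen, the line labels swapped places. At 21% oxygen all 5 genes detected throughout were lower on the HLY arrays, where 31.8% of all genes were lower and 32.7% higher, and at 1% oxygen all 5 were higher on the HLY arrays, where 33.4% of all genes were higher and 33.1% lower. HLA-DRA was 16.2-fold lower under the HLY label at 21% oxygen and 10.9-fold higher at 1% oxygen (adjusted p = 1.18e-12 and 4.99e-12). HLA-DPA1 was 18.5-fold lower and 11.1-fold higher. For CD74 the log2 differences were -0.75 and 0.73 (adjusted p = 0.0237 and 0.025), and these calls were lost in 4 and 7 of the alternatives. At 21% oxygen these were the fit with no detection filter and those without HLY normoxia replicate 1 or 2 or SUDHL2 normoxia replicate 1 (adjusted p up to 0.0869). At 1% oxygen they were the fits without HLY hypoxia replicate 1 or 3 or SUDHL2 hypoxia replicate 1 (up to 0.127), with no detection filter, with the mean of the kept probes, with only the groups compared and with the methods' t-test (0.226). The second CD74 probe was called in both comparisons (-0.99 and 0.71, adjusted p = 0.00597 and 0.0349 from limma over all kept probes). The dim CD74 probe was called in neither (-0.37 and 0.37, adjusted p = 0.365 and 0.362).

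The average response sets the 6 hypoxia arrays against the 6 normoxia arrays with each line label weighted equally and does not depend on which line an array came from. Of the 8 genes 0 were called, where 3.9% of all genes were higher and 5.64% lower. At an unadjusted p under 0.05 limma called 1 of the 8, CIITA, where it called 25.2% of all genes, and the methods' t-test over 6 against 6 arrays called 0. HLA-DRA was at 0.08 on the log2 scale (95% confidence interval -0.10 to 0.25), HLA-DPA1 at 0.12 (-0.09 to 0.34), HLA-DQB1 at -0.14 (-0.38 to 0.11) and CD74 at -0.23 (-0.63 to 0.18). The second CD74 probe stood at -0.21 and the dim one at -0.53 (-1.05 to -0.01). Neither was called (adjusted p = 0.548 and 0.194 from limma over all kept probes). CIITA was at 0.28 (0.06 to 0.50, adjusted p = 0.106). The upper bound of HLA-DRA lay under the average response of each hypoxia control gene that was called, the least being MXI1 at 0.48. Of these known targets of the hypoxia-inducible factors, 10 of 11 tested were called higher and 0 lower in the average response, among them ANKRD37 at 2.42 (2.20 to 2.63, adjusted p = 1.12e-08), DDIT4, an inhibitor of mTORC1, at 1.77 and VEGFA, the angiogenic growth factor, at 0.98. Within the labels the same 11 genes differed. In the HLY response 10 were higher and 0 lower (median 2.40), where 33.1% of all genes were higher and 32.4% lower. In the SUDHL2 response 3 were higher and 4 lower (median 0.15), where 33.3% of all genes were higher and 33% lower. Of the control genes called, 4 in the HLY and 1 in the SUDHL2 response were detected on no array of one group. NDRG1, the one not called in the average response, was at least 32.4-fold higher with hypoxia under the HLY label and fell by 5.12 on the log2 scale under the SUDHL2 label.

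**Figure D4:**
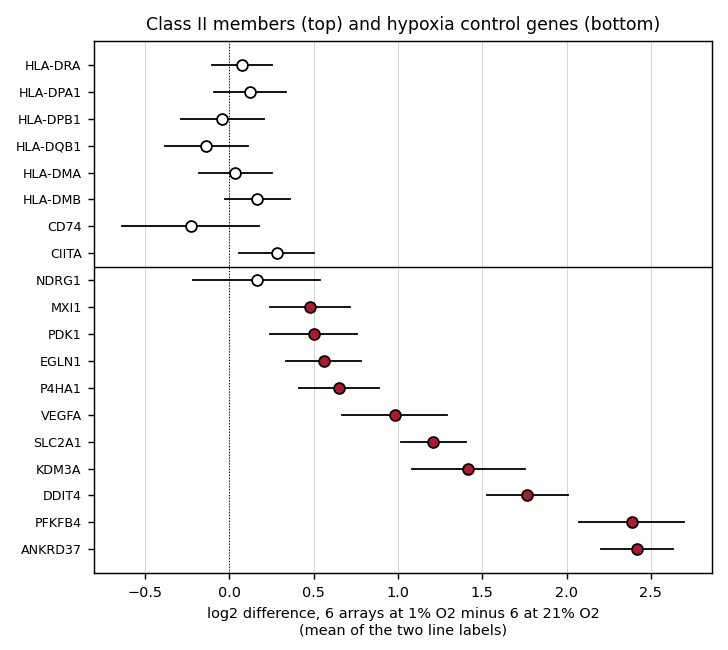
Average response (log2 difference between 6 hypoxia and 6 normoxia arrays, both line labels weighted equally) of the 8 class II genes and CIITA above the line and of 11 hypoxia control genes below it, with 95% confidence intervals. Filled points passed an adjusted p of 0.05, which 0 of the 8 and 10 of the 11 did. HLA-DPB1, HLA-DQB1 and CIITA were below background on the arrays labelled HLY normoxia and SUDHL2 hypoxia.

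Genes of the DNA-bound and coactivator proteins that work with CIITA were called in both directions. Of 13 tested, 4 were higher and 2 lower in the HLY response and 2 higher and 5 lower in the SUDHL2 response. Over all genes 33.1% were higher and 32.4% lower in the former and 33.3% higher and 33% lower in the latter. The medians of the 13 were 0.25 and -0.20 on the log2 scale where all genes had -0.01 and 0.02. EP300, an acetyltransferase that CIITA recruits, read 343, 586 and 490 on HLY hypoxia, 126, 133 and 127 on HLY normoxia, 147, 116 and 118 on SUDHL2 hypoxia and 360, 414 and 255 on SUDHL2 normoxia. It was at least 4.96-fold higher and at least 3.87-fold lower in the respective responses (adjusted p = 4.71e-09 and 7.81e-09), but, like NLRC5, it was detected in the high groups only and had to differ. SMARCA4, the motor of the BAF remodelling complex, rose by 1.31 under the HLY label and fell by 1.13 under the SUDHL2 label (adjusted p = 4.66e-07 and 2.38e-06). NLRC5, which does for class I genes what CIITA does for class II, was at least 1.19-fold higher and at least 1.40-fold lower.

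Of the RFX subunits, RFX5 rose by 0.59 and fell by 0.54 (adjusted p = 0.00127 and 0.00228). RFXAP fell by 0.71 under the HLY label (adjusted p = 0.00249) and stood at 0.39 under the SUDHL2 label (adjusted p = 0.0585). RFXANK, by its brightest probe, stood at 0.01 and 0.27 (adjusted p = 0.951 and 0.0839), but its probes did not say the same. ILMN_1804113 had normalized log2 means of 7.63 on HLY hypoxia, 8.26 on HLY normoxia, 8.88 on SUDHL2 hypoxia and 7.82 on SUDHL2 normoxia. ILMN_2399497 had 9.10, 9.20, 9.22 and 9.12 in that order. RFX5 and RFXANK are named as subunits of the complex after their values were seen. CREB1, which binds next to RFX, fell by 0.65 under the HLY label by its brightest probe (adjusted p = 7.35e-04). It stood at -0.20 under the SUDHL2 label (adjusted p = 0.208). In the average response CREB1 was the only one of the 13 called (-0.42, adjusted p = 0.0147). Another CREB1 probe detected on all 12 arrays, ILMN_2334242, had normalized log2 means of 8.47, 10.36, 9.43 and 9.76 in the order given for RFXANK. ILMN_1841334, also detected on all 12, had 8.80, 9.31, 8.59 and 8.86. CREBBP, the relative of EP300, stood at -0.34 (adjusted p = 0.0558) and rose by 1.00 under the SUDHL2 label (adjusted p = 3.51e-05).

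Genes whose products act on the CIITA gene were called in both directions. Of 16 tested, 6 were higher and 7 lower in the HLY response and 7 higher and 7 lower in the SUDHL2 response, where about 33% of all genes were called in each direction. IRF1, which relays interferon gamma to the CIITA promoter, read 658, 998 and 578 on HLY hypoxia, 208, 194 and 184 on HLY normoxia, 368, 231 and 192 on SUDHL2 hypoxia and 784, 610 and 495 on SUDHL2 normoxia. It rose by 2.21 and fell by 1.58 on the log2 scale (adjusted p = 4.59e-09 and 1.90e-07), the same sense as CIITA. IRF4 rose by 1.64 and fell by 1.36, and PRDM1, the plasma cell repressor that shuts CIITA off, rose by 1.39 and fell by 1.48 (adjusted p = 3.14e-07 and 1.55e-07), also in the sense of CIITA.

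The other named factors ran opposite to CIITA. IRF8, a B-cell and myeloid factor, read 141, 164 and 135 on HLY hypoxia, 3701, 3681 and 3033 on HLY normoxia, 5856, 3260 and 2679 on SUDHL2 hypoxia and 147, 236 and 134 on SUDHL2 normoxia. It was at least 72.8-fold lower with hypoxia under the HLY label (adjusted p = 1.85e-10) and rose by 5.93 on the log2 scale under the SUDHL2 label (adjusted p = 6.19e-10). SPI1 (PU.1), its partner on DNA, was at least 2.70-fold lower and at least 2.89-fold higher. SPI1 was detected only in the groups where it was high, and IRF8 there and on 1 array of SUDHL2 normoxia. Both passed the detection filter only through their high groups and had to differ. EZH2, which places the repressive H3K27 methylation, fell by 1.98 and rose by 1.92 (adjusted p = 1.86e-08 and 2.64e-08).

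Of 16 genes tested that process antigen for class II, 5 were higher and 6 lower in the HLY response and 6 higher and 5 lower in the SUDHL2 response, close to the 33% of all genes called in each direction. Of those called, 5 in the HLY and 4 in the SUDHL2 response were detected on no array of one group. LGMN, CST3, CTSS and MARCHF1 among them passed the detection filter only through the groups where they were high and had to differ. The counts are therefore no support. LGMN, a lysosomal endopeptidase, was at least 10.8-fold higher under the HLY label and at least 11.4-fold lower under the SUDHL2 label, and CST3, an inhibitor of cysteine cathepsins, at least 10.6-fold higher and at least 11.3-fold lower, both in the sense of HLA-DRA. CTSS, the cathepsin that makes the last cut of the invariant chain in B cells, was at least 2.06-fold lower and at least 2.48-fold higher, against that sense. CTSH, another cathepsin, was at least 143-fold lower under the HLY label and rose by 7.35 under the SUDHL2 label. Without SUDHL2 normoxia replicate 2, the 1 array of that group that detected it, the fitted 8.30 is measured against background. CTSH also passed the detection filter only through its high groups and had to differ. MARCHF1, which marks surface class II for degradation, was at least 9.49-fold lower and at least 4.95-fold higher, and CD83, which opposes MARCHF1, fell by 5.26 and rose by 5.48.

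Of 16 class I and peptide loading genes tested, 9 were higher and 2 lower in the HLY response and 1 was higher and 9 lower in the SUDHL2 response, where 33.1% of all genes were higher in the former and 33% lower in the latter. The other 5 and 6 were not called, and the list had medians of 1.23 and -0.81 on the log2 scale. HLA-B read 12022, 14790 and 13259 on HLY hypoxia, 310, 308 and 264 on HLY normoxia, 445, 324 and 271 on SUDHL2 hypoxia and 13373, 14006 and 9889 on SUDHL2 normoxia. Its log2 differences of 5.75 and -5.39 (adjusted p = 1.05e-13 and 2.22e-13) were followed by HLA-F (5.40 and -4.92), HLA-G (5.00 and -3.98), HLA-C (3.08 and -2.80), the peptide transporter TAP1 (2.84 and -2.69) and HLA-E (1.76 and -1.68), all called in both responses. Probes of class I genes can share signal among near-identical genes.

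Of 8 costimulation genes tested, which signal to the T cell that reads class II, 3 were higher and 5 lower in the HLY response and 5 higher and 3 lower in the SUDHL2 response. In each response 3 of the 8 were detected in the high group only and had to differ, and about 33% of all genes were called in each direction. CD40, the receptor for T-cell help, was at least 12.5-fold lower under the HLY label and at least 12.9-fold higher under the SUDHL2 label, and the CD28 ligands CD80 (at least 6.17-fold lower and at least 5.5-fold higher) and CD86 (-2.26 and 2.34 on the log2 scale) ran the same way. CD58, the ligand of CD2, rose by 2.08 and fell by 2.36, and CD70, the ligand of CD27, rose by 1.92 and fell by 2.20, with class II.

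B-cell markers ran against class II on these arrays. Of 14 tested, 13 were lower and 1 higher in the HLY response and 13 higher and 1 lower in the SUDHL2 response, where about 33% of all genes were called in each direction. Of these, 11 in the HLY and 9 in the SUDHL2 response were detected in the high group only and had to differ, so that the counts are no support. Their summed background-corrected level over 15 genes with a probe was 1497 to 2077 on HLY hypoxia, 18429 to 20468 on HLY normoxia, 17119 to 20016 on SUDHL2 hypoxia and 2037 to 2750 on SUDHL2 normoxia. The same sum over the described genes was 16532 to 20530, 4273 to 4782, 3588 to 5241 and 20450 to 22015 in that order. On HLY hypoxia 12 and on SUDHL2 normoxia 10 of the 15 markers were detected on no array, CD79B, a subunit of the B-cell receptor, and CD22 among them, although both lines are labelled as B-cell lymphoma. Their part in the class II result was not tested.

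SUDHL2 normoxia replicate 2 stood apart within its group for such markers. TCL1A, a lymphoid cofactor of AKT, read 107, 124 and 106 on HLY hypoxia, 6029, 7502 and 5503 on HLY normoxia, 10786, 6454 and 5931 on SUDHL2 hypoxia and 116, 287 and 103 on SUDHL2 normoxia. CD79A read 156, 316 and 152 on SUDHL2 normoxia and 3366 to 4778 on the HLY normoxia and SUDHL2 hypoxia arrays, and CTSH and IRF8 were also highest on replicate 2 in that group (304 and 236). Without it the fitted SUDHL2 response went from 7.35 to 8.33 for TCL1A, from 5.40 to 6.03 for CD79A and from 5.93 to 6.46 for IRF8. Only replicate 2 of that group detected IRF8 and CTSH, so that without it their fitted values are measured against background. TCL1A was left with readings of 116 and 103 there. Without SUDHL2 normoxia replicate 2 the counts of class II genes called were the same in each of the 8 comparisons, with 7 higher in the HLY response and 8 lower in the SUDHL2 response. These counts include HLA-DPB1, HLA-DQB1 and CIITA, which had to differ. In the main fit 33.1% of all genes were higher in the former and 33% lower in the latter.

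**Figure D5:**
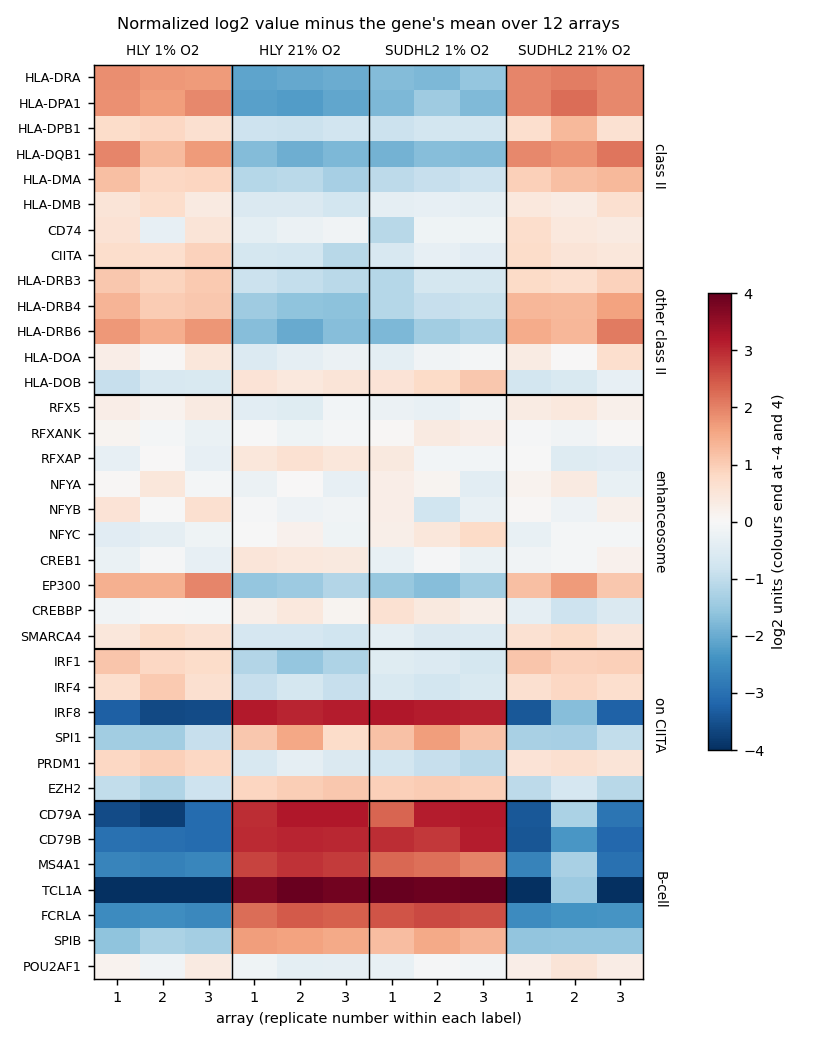
Normalized log2 value minus the mean of the gene over 12 arrays (red higher, blue lower) for the 8 class II genes and CIITA tested, other class II genes, DNA-bound factors and coactivators, factors acting on CIITA and B-cell markers. The first and last 3 arrays, labelled HLY hypoxia and SUDHL2 normoxia, share one pattern and the middle 6 another, with HLA-DOB, IRF8 and most B-cell markers opposite to HLA-DRA.

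Markers of other antigen-presenting cells were near background throughout. Of 14 macrophage and dendritic cell markers 0 were detected on all 3 arrays of any group, 12 or 13 were detected on none, and their summed level was 191 to 268 over the 12 arrays. CD14, CSF1R and ITGAX were among those not detected on HLY hypoxia and SUDHL2 normoxia, where class II was high. LYZ, the one tested, was not called in either response (0.52 and 0.50, adjusted p = 0.269 and 0.288). Of 10 T-cell markers 8 were detected on no array of HLY hypoxia and 8, not all of them the same, on no array of SUDHL2 normoxia. Both T-cell markers tested were higher in the HLY response, and in the SUDHL2 response TRAT1, an adaptor of the T-cell receptor, was lower and CD2 higher, each with a group in which no array detected it. The part of these genes in the class II result was not tested. Of 11 fibroblast and epithelial markers EPCAM alone was detected, on the HLY normoxia and SUDHL2 hypoxia arrays (597 to 1529). It was at least 22.5-fold lower with hypoxia under the HLY label and at least 15.4-fold higher under the SUDHL2 label. EPCAM passed the detection filter only through these high groups and had to differ.

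The genes with profiles most like that of HLA-DRA were not class II genes. Likeness was measured as the root mean square difference over 12 arrays between log2 values centred on the mean of each gene, among 9620 other genes, as a description with no test. Nearest to HLA-DRA, whose own SD over the arrays was 1.96, were TMOD1, which caps actin filaments (0.137), SRPK2, a kinase of splicing factors (0.142), and APOBEC3H, a cytidine deaminase (0.158), while HLA-DPA1 lay at 0.169 and HLA-DQB1 at 0.222. Nearest to CIITA (SD 0.73) were ZFP36, an mRNA decay factor (0.141), RACGAP1, a regulator of cell division (0.143), and STX11, a syntaxin (0.144), and HLA-DMB lay at 0.254. CIITA was detected on 6 of the 12 arrays, so that its SD is limited by background. The measure is not scaled and favours genes of a like SD. Nearest to CD74 (SD 0.53) were SMARCD1 (0.168), MOGS (0.182) and KMT2B (0.182). The 12 arrays share the crossed grouping, which most genes followed.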

How the data were processed

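RNA of HLY and SUDHL2 cells was measured on 12 Illumina arrays. The authors deposited raw probe intensities from GenomeStudio 2011.1 (per the submitters' processing notes), each with a detection p-value against negative controls, and a score, found here to be log10 intensity scaled to a mean of 0 and an SD of 1 on each array (deviations up to 0.0109). Intensities were background-corrected, quantile-normalized (offset 16) and put on the log2 scale by limma (version 3.58.1, function neqc, R 4.3.3). The filter kept 16288 probes whose detection p was below 0.01 on 3 or more arrays. The brightest probe stood for each of 9621 genes, named through the array annotation (30121 of 47230 probes listed, 8 with several symbols) and RefSeq.

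The 4 group means were fitted with lmFit and eBayes, and the Benjamini-Hochberg adjustment ran over all genes (threshold 0.05) or, for single probes, over all kept probes. A gene detected on no array of a group was given as a bound. Members, the 12 gene lists and the alternatives were chosen with earlier results of these data known. Every member was named, with up to 6 genes per list by largest log2 difference in the HLY or SUDHL2 response and the 3 nearest profiles of HLA-DRA, CD74 and CIITA. The number of arrays limits the precision. The fit was tested on simulated data. Figures were drawn with Python 3.11.15 and matplotlib 3.10.9. Probe sequences were not used here.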

Additional observations from a re-analysis of the deposited data

Results flagged for a closer look

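For all 8 class II genes tested the hypoxia response differed between the line labels by a test of the difference itself (the SUDHL2 response minus the HLY response, limma). On the log2 scale the difference was -7.68 for HLA-DPA1, -7.46 for HLA-DRA, -7.21 for HLA-DQB1, -4.22 for HLA-DMA, -3.17 for HLA-DPB1, -2.66 for CIITA, -1.98 for HLA-DMB and -1.48 for CD74, the last with an adjusted p of 0.00262. Of all genes tested 73.8% differed between the labels in this test, with 36.6% of all genes in the lower direction, and the arrays grouped across the line labels in this contrast. HLA-DPB1, HLA-DQB1 and CIITA passed the detection filter only through the groups where they were high and had to differ. The values are those of the brightest probe. For CD74 a second probe gave -1.71 (adjusted p = 0.00121 over all kept probes), and the dim one gave -0.75 and was not called (adjusted p = 0.183).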

How the results depend on the processing

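Of the counts of genes called over 8 comparisons and 23 alternatives, 338 stayed within 1.5 times the main count and 16 moved. With probes detected on all 12 arrays, which leaves 5 genes, 4 were higher in the HLY response, and 5 were lower in the SUDHL2 response, in the difference between the responses and in HLY at 21% oxygen, and 5 were higher in HLY at 1% oxygen. Between SUDHL2 hypoxia and HLY normoxia the count of genes higher was 2 without background correction, with probes detected on all 12 arrays and with trend and robust moderation, 0 with median centring, deposited scores, only the groups compared and the methods' t-test, and 0 to 1 when each array was left out.

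Values that changed sign were small and not called. With the deposited scores the average response of HLA-DRA was -0.02 and that of HLA-DPB1 0.00333, and for HLA-DPB1 it was 0.0269 with each label normalized alone. With median centring HLA-DPB1 was at 0.0292 in the average response, and between HLY hypoxia and SUDHL2 normoxia HLA-DPA1 was at 0.00806, HLA-DPB1 at 0.0144, HLA-DMA at 0.0887 and CD74 at 0.0204. When each array was left out, the average response ran from -0.0999 to 0.0684 for HLA-DPB1 and from -0.0238 to 0.0719 for HLA-DMA (also negative, at -0.0147, without SUDHL2 normoxia replicate 1). Between HLY hypoxia and SUDHL2 normoxia the range was -0.244 to 0.0924 for HLA-DPB1, -0.0263 to 0.148 for HLA-DMB and -0.405 to 0.062 for CD74, and between SUDHL2 hypoxia and HLY normoxia it was -0.0198 to 0.0932 for HLA-DQB1 and -0.385 to 0.0929 for CD74. CD74 in the SUDHL2 response was not called by the methods' t-test (adjusted p = 0.0752).

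The labels do not say whether the replicate numbers pair the arrays. Same-numbered arrays of a label deviated together at correlations of -0.0184 to 0.231, which cannot settle it. With the replicate number as a block 7 genes were higher in the HLY response and 8 lower in the SUDHL2 response, as without it. Among these were HLA-DPB1, HLA-DQB1 and CIITA, which had to differ. In the main fit 33.1% of all genes were higher in the HLY and 33% lower in the SUDHL2 response. Comparisons across labels were not run with each label normalized alone, nor the difference between responses with only the groups compared or the methods' t-test. Probes of HLA-DRB1, HLA-DPB1 and CIITA lay at or near background, which limits what can be read from them.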
